A study of Mus musculus with 23 samples.

Results

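The comparison concerns what mouse epiblast-like cells express under BMP4 when they lack Wnt3, and at which hour the difference appears. It rests on 6 of the 23 arrays of the series, chosen by their titles: the 3 arrays of Wnt3-/- cells with BMP4 at 12, 24 and 36 h (KO BMP4) and the 3 arrays of Wnt3+/+ cells with BMP4 at the same hours (WT BMP4). Each is an Affymetrix mouse array, on which a gene is read by 1 or more sets of probes. Both genotypes are male embryonic stem cells on a C57BL/6 background that carry the BV transgenes. They were kept in 2i and LIF, turned into epiblast-like cells on fibronectin with activin A, bFGF and knockout serum replacement, and then moved to floating aggregates in medium with serum replacement and LIF. BMP4 was added to the aggregates at 500 ng/ml. Arrays of the same 2 genotypes without added cytokine (KO none, WT none) at 12, 24 and 36 h, and at 0 h before aggregation, stand beside them.

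WNT3 is a secreted signal of the epiblast. It binds Frizzled and LRP receptors, which keeps beta-catenin from being degraded, and beta-catenin then turns on genes together with TCF/LEF factors at their control sites. In the mouse embryo BMP4 from the extraembryonic ectoderm acts on the epiblast through SMAD proteins, and embryos without Wnt3 form no primitive streak and no mesoderm. Genes of the streak, of posterior mesoderm and of the primed epiblast therefore show how far cells have left the epiblast state, and the Id genes show direct BMP signalling through SMADs.

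There was 1 array for each genotype, condition and time, and the 3 times stood in for replicates. A p-value here measures how far arrays depart from the fitted time course, pooled over 21 arrays of 7 conditions. It does not measure spread between repeated cultures. The labels do not say how many lines of each genotype or how many aggregates were used, and a difference between lines cannot be told apart from an effect of genotype. Cells were read in bulk, so fewer cells of a type and less RNA per cell cannot be told apart. Signal means the deposited linear intensity, and differences are KO minus WT on quantile normalized log2(signal + 16), where 1 unit is 2-fold and low signals are understated. Where 3 values are given they are for 12, 24 and 36 h in that order. The 6 arrays had median signals of 38.3 to 40.2 and Gapdh 3' to 5' ratios of 1.09 to 1.21, against 1.21 to 2.68 on the KO and WT arrays without cytokine and up to 4.03 in the series. The epiblast-like identity was checked on its markers. Pou5f1, which encodes the pluripotency factor OCT4, had signals of 9027 in KO and 8780 in WT cells at 0 h, and Pou3f1 had 4451 and 4360. Of the markers of trophoblast, of primitive or visceral endoderm and of fibroblasts, 4, 5 and 5 were bright enough to test. None of these markers passed between KO BMP4 and WT BMP4, a comparison that cannot tell whether such cells were present in both. Their summed signals were 362 to 441 in KO BMP4 and 333 to 348 in WT BMP4 for trophoblast, 426 to 512 and 389 to 515 for endoderm, and 1183 to 1815 and 1221 to 2340 for fibroblasts. Elf5, Afp, Ttr and Col1a1 were too dim to test.

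Over the 3 times, 958 of 13256 genes (7.23%) differed between KO BMP4 and WT BMP4 in limma at a Benjamini-Hochberg adjusted p below 0.05, of which 391 (2.95%) were lower and 567 (4.28%) higher in KO cells. The difference had the same sign at all 3 times for 954 of them. Passing a test on the mean of those 3 times favours a shared sign, so this count is no separate evidence. The counts given below for gene lists stand beside these shares over all genes. The lists were chosen with earlier results of these data known. With the values as deposited, without quantile normalization, 873 genes passed, with 266 lower and 607 higher. The count fell most when the 24 h arrays were left out, which leaves 12 and 36 h alone, and 7 genes then passed. Leaving out the 12 h arrays gave 466 and leaving out the 36 h arrays 846. With a linear course for each condition 1504 passed. The cause of the fall was not tested, and it does not mean that the difference lay at 24 h. Enpp3 and Fgf15 were among the 7 genes that passed without the 24 h arrays. The 16 lowest were Evx1, Sp5, Tnfrsf19, Rtl8c, Wnt8a, Evx1os, Nkx1-2, Wnt5b, Hoxb1, Apln, Fst, Mixl1, Axin2, Rspo3, Fgf8 and Gbx2. The 14 highest were Fgf4, Enpp3, Slc35d3, Otx2, Foxd3, Fgf15, Pou3f1, Calcr, Myb, Pipox, Tubb3, Frmd4a, Sox2 and Zfp462.

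**Figure D1:**
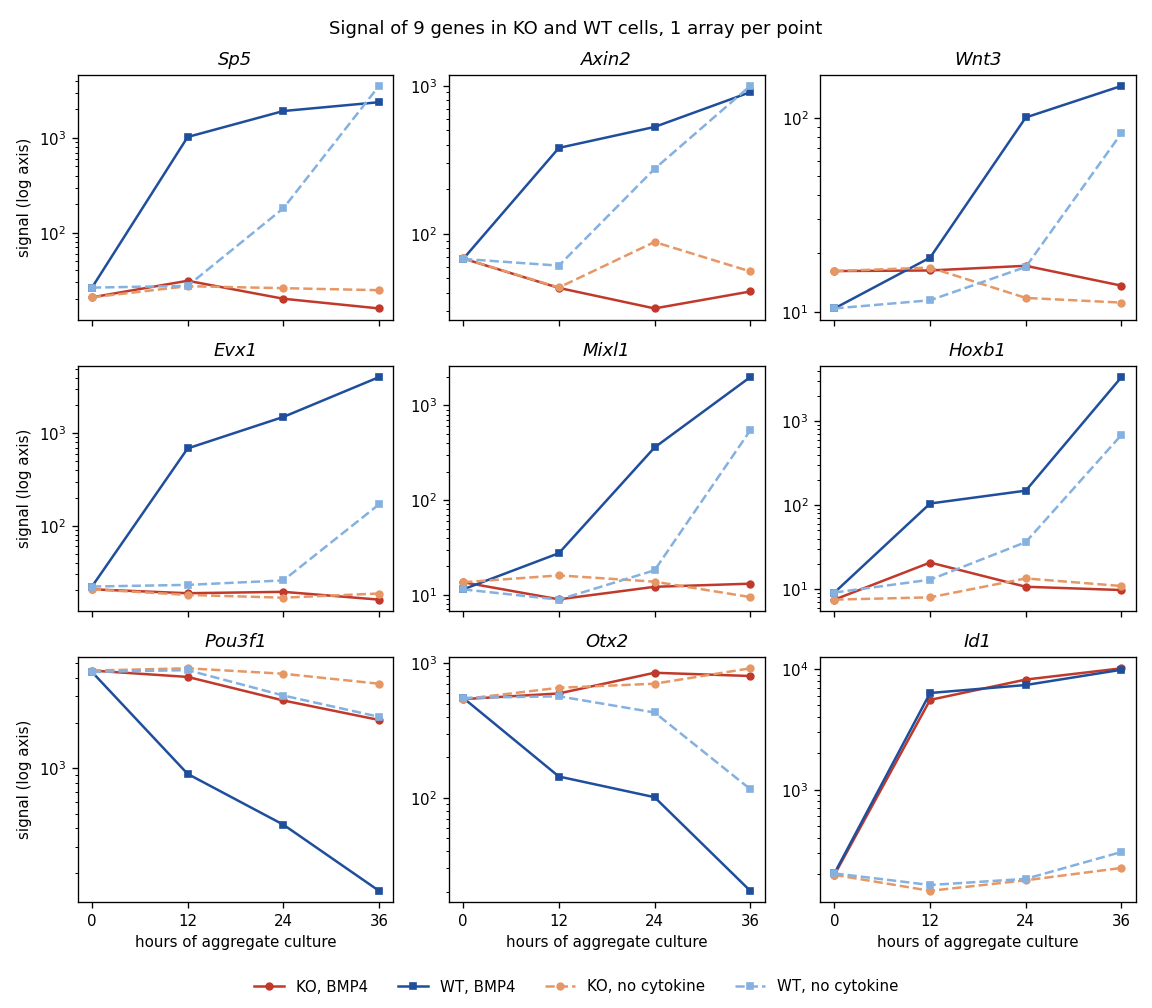
Signal on a log axis against hours of aggregate culture for 9 genes, with 1 array per point, for KO and WT cells with BMP4 (solid lines) and without cytokine (dashed lines). Sp5, Axin2, Evx1, Mixl1 and Hoxb1 stay low in KO BMP4 at every time while WT BMP4 climbs, Pou3f1 and Otx2 stay high in KO BMP4 while WT BMP4 falls away, and Id1 runs alike in both.

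The targeted gene itself was read first. Wnt3 had signals of 16.3, 17.3 and 13.6 in KO BMP4 and 19.0, 100.4 and 146 in WT BMP4, a mean difference of -1.45 ± 0.41 (standard error; limma adjusted p = 0.0436). The 2 genotypes lay close together at 12 h, both below the array medians of 38.3 to 40.2, and apart at 24 and 36 h. The sources used here do not give the deleted part of Wnt3, and whether its probe set falls within that part is unknown. At 0 h the signals were 16.2 in KO and 10.4 in WT cells. Without cytokine the Wnt3 signals were 16.9, 11.8 and 11.2 in KO cells and 11.5, 17.0 and 83.3 in WT cells, and WT stood above KO at 36 h.

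Of 19 WNT ligand genes 11 were bright enough to test, and 5 were lower and none higher in KO BMP4: Wnt3 itself, Wnt8a, Wnt5b, Wnt11 and Wnt4, with a list median of -0.86 against -0.0099 over all genes tested. Wnt8a, a ligand of the streak and posterior embryo, had signals of 49.9, 25.6 and 15.7 in KO BMP4 against 949, 1399 and 1060 in WT BMP4, a difference of -4.72 ± 0.60 (adjusted p = 2.55e-04). The groups did not overlap, and the difference at 12 h was already -4.03. Wnt5b had 67.6, 62.2 and 80.4 in KO BMP4 and 498, 891 and 3666 in WT BMP4, and its difference widened with time (-2.78, -3.64 and -5.26). Wnt11 and Wnt4 passed with smaller differences of -1.05 ± 0.30 and -0.45 ± 0.13 (adjusted p = 0.0428 and 0.0443). In alternative settings of the processing, Wnt11 fell short of passing in 7 of 16 and Wnt4 in 10 of 17. Wnt5a and Wnt3a did not pass over the 3 times. Their WT BMP4 signal stood out at 36 h alone: Wnt5a had 13.5, 10.3 and 18 in KO BMP4 and 17.9, 18.8 and 572 in WT BMP4, and Wnt3a had 153, 136 and 135 and 163, 151 and 714.

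Among the 25 WNT receptors and transducers tested, 4 were lower and 5 higher in KO BMP4, with a list median of 0.22. Of the 4 lower ones, Porcn and Wls act in the release of WNT proteins, Rspo3 is secreted and Fzd10 is a receptor. Porcn encodes the enzyme that adds the lipid WNT proteins need for secretion, and its signals were 119, 103 and 161 in KO BMP4 against 458, 699 and 699 in WT BMP4 (difference -2.20 ± 0.34, adjusted p = 0.00102). Wls encodes the carrier that brings WNT proteins to the cell surface and had 385, 904 and 1351 in KO BMP4 against 755, 1652 and 3875 in WT BMP4 (-1.15 ± 0.15, adjusted p = 2.63e-04). At each hour KO BMP4 was the lower array, although Wls climbed over time in both genotypes. Rspo3, a secreted protein that strengthens WNT signalling, had 11, 16 and 13.2 in KO BMP4 and 79.9, 146 and 1833 in WT BMP4 (-3.39 ± 0.82, adjusted p = 0.0186). Rspo1, of the same family, was at 0.12, 0.39 and 1.80 and did not pass (adjusted p = 0.148).

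The 5 higher ones of the list's 28 genes were Fzd8, Fzd7, Fzd3, Lgr4 and Tcf7l1. Fzd8, a Frizzled receptor gene, had 221, 231 and 211 in KO BMP4 and 67.2, 48.5 and 55.3 in WT BMP4 (1.67 ± 0.25, adjusted p = 8.08e-04), and Fzd7 had 2336, 2419 and 1510 and 1361, 755 and 826 (1.08 ± 0.22, adjusted p = 0.00689). Fzd10 went the other way, with 190.0, 152 and 169 in KO BMP4 and 278, 278 and 359.5 in WT BMP4 (-0.84 ± 0.14, adjusted p = 0.00197). Fzd3 and Lgr4, a receptor for R-spondins, were higher by 0.63 and 0.55, though other probe sets of both genes lay near 0 with the opposite sign. Tcf7l1, which encodes a TCF factor that mostly represses WNT targets, was higher by 0.91 ± 0.23 (adjusted p = 0.0214), with 2272, 2487 and 2978 in KO BMP4 against 1911, 1305 and 989 in WT BMP4. Ctnnb1, the gene of beta-catenin itself, did not pass, at 0.11 ± 0.05 (adjusted p = 0.255).

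Feedback and target genes of the pathway were next. Of 14 genes 12 were tested, and 6 were lower and none higher in KO BMP4, with a list median of -0.72. Sp5, a transcription factor gene that beta-catenin activates directly, had signals of 31.1, 20.1 and 15.9 in KO BMP4 against 1024, 1924 and 2385 in WT BMP4 (-5.52 ± 0.85, adjusted p = 0.00103). Tnfrsf19, a receptor gene known as a WNT target, had 23.9, 19.6 and 12.6 against 787, 976 and 1468 (-4.99 ± 0.65, adjusted p = 2.85e-04). Axin2, the negative feedback regulator that is the usual readout of the pathway, had 43.1, 31.3 and 40.8 against 380.0, 526 and 904 (-3.49 ± 0.48, adjusted p = 4.08e-04). All 3 were apart by 12 h. The Wnt3 signals at that hour, 16.3 in KO BMP4 and 19.0 in WT BMP4, were below the array medians of 38.3 to 40.2. A difference in Wnt3 could be missed at that level, so the order of Wnt3 and these genes cannot be read here. Dkk1, a secreted inhibitor that WNT signalling induces, and Lef1, a TCF/LEF factor gene, were lower by -2.81 ± 0.68 and -1.23 ± 0.31 (adjusted p = 0.0197 and 0.0233), with most of the gap at 36 h (-1.0, -2.14 and -5.29 for Dkk1 and -0.23, -0.84 and -2.62 for Lef1). Znrf3, a feedback gene that removes Frizzled receptors, was lower by -0.81 ± 0.19 (adjusted p = 0.0143).

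Among genes listed as secreted WNT antagonists, with Shisa2 counted though it acts inside the cell, 8 of 12 were tested. Of these 1 was lower and 2 higher in KO BMP4. Over all genes tested the shares were 2.95% and 4.28%. The lower one was Dkk1. Sfrp1, which binds WNT proteins outside the cell, had 1361, 1710 and 1911 in KO BMP4 and 1010, 402 and 326 in WT BMP4 (1.64 ± 0.47, adjusted p = 0.0424). Other probe sets of Sfrp1 gave mean differences of 0.14, 0.036 and 0.037, and another gave 1.20. Sfrp1 fell short of passing in 8 of 17 alternative settings of the processing. Shisa2, which holds back Frizzled and FGF receptors inside the cell, had 112, 236 and 329 and 58.1, 53.4 and 21.1 (1.90 ± 0.41, adjusted p = 0.00981). In both cases the signal fell over the 3 hours in WT BMP4 and climbed in KO BMP4.

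Promoter sequences of 4 of the lowest genes are printed. They were picked as the paired genes Evx1 and Evx1os and the 2 WNT targets with a TCF/LEF motif in a window. The sequences run from 250 bases before to 50 bases after the annotated start, 5' to 3' on the gene's strand, from RefSeq on GRCm38.p6. Capitals mark CTTTGAT, the core motif of TCF/LEF factors, on either strand (ATCAAAG on the other). The Evx1 window is chr6:52313248-52313547 on the plus strand, and the Evx1os window chr6:52314783-52315082 on the minus strand, with 1334 bases between the 2 starts. The Sp5 window is chr2:70474673-70474972 on the plus strand and the Tnfrsf19 window, 1 of 2 for that gene, chr14:61037938-61038237 on the minus strand. This Tnfrsf19 window was picked because it holds the motif, and the other window of the gene does not.
Evx1: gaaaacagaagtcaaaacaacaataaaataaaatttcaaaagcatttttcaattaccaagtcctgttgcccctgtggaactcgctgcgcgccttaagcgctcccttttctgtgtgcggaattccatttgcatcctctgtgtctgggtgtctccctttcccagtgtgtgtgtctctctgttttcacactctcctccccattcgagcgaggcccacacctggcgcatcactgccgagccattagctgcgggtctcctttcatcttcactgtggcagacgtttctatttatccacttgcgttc
Evx1os: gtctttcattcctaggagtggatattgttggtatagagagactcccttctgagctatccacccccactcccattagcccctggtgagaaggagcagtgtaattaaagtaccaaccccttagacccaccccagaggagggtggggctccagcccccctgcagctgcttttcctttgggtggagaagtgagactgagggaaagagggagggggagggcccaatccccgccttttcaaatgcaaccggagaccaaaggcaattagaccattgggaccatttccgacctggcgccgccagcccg
Sp5: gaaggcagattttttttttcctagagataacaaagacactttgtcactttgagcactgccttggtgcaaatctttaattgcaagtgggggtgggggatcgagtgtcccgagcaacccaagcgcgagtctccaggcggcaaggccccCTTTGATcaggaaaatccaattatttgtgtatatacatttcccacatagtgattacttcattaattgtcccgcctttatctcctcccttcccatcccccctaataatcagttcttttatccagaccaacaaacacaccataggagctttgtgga
Tnfrsf19: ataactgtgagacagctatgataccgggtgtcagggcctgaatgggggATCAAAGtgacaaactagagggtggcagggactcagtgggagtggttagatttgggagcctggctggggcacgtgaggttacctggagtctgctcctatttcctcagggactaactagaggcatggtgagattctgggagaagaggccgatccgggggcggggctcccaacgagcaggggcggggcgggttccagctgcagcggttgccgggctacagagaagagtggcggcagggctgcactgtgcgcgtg
The motif was in 3.73% of the 32851 windows of the table and in a window of 3.26% of the 10692 tested genes that have one. Of the 16 lowest genes 11 have windows, and 3 of those held the motif (Sp5, Tnfrsf19 and Wnt5b). Of the 14 highest genes 11 have windows, and 0 held it. The windows of Evx1, Evx1os and Axin2 do not hold these letters.

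Genes of the primitive streak had the lowest median of the 23 lists, at -2.40 over the 3 times. Of 12 genes 11 were tested, and 6 were lower and none higher in KO BMP4, with medians of -0.82, -1.64 and -4.21 at the 3 hours. Evx1, a homeobox gene of the posterior streak, had signals of 18.6, 19.3 and 15.9 in KO BMP4 against 685, 1499 and 4040 in WT BMP4 (-5.65 ± 0.59, adjusted p = 7.48e-05). The KO BMP4 signals did not leave the level of 0 h, where KO cells had 20.5 and WT cells 22.0. Evx1os, the RNA transcribed from the opposite strand next to Evx1, followed it, with 6.41, 6.68 and 5.46 in KO BMP4 and 118, 471 and 1520 in WT BMP4 (-4.42 ± 0.56, adjusted p = 2.55e-04). The array reads each through its own probe set. Fgf8, the FGF that streak cells need to migrate, had 54.9, 46.5 and 24.4 in KO BMP4 and 355, 431 and 873 in WT BMP4 (-3.28 ± 0.49, adjusted p = 8.08e-04). Fst, which encodes the activin antagonist follistatin, was lower by -3.76 ± 0.63 (adjusted p = 0.00183).

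Not all streak genes were 2-fold apart at 12 h: of the 11 tested, 5 were lower from that hour on. Mixl1, a homeobox gene of mesendoderm, had 8.94, 12.1 and 13.1 in KO BMP4 and 27.5, 359.5 and 1992 in WT BMP4 (-3.54 ± 0.85, adjusted p = 0.0182), and passed 2-fold from 24 h. Eomes, a T-box gene of the early streak, had 205, 179.8 and 177 against 755, 1596 and 676 (-2.27 ± 0.62, adjusted p = 0.0367), and its WT BMP4 signal was highest at 24 h. Eomes was 2-fold lower from 12 h, with differences of -1.85, -3.14 and -1.84. A second Eomes probe set, with a lower mean log2 value but a higher mean linear signal, gave a mean difference of -3.47. Snai1, which switches off E-cadherin, had 22.6, 31.1 and 41.6 against 77.7, 126 and 1113 (-2.40 ± 0.48, adjusted p = 0.00651). Snai1 too was 2-fold lower from 12 h, with differences of -1.36, -1.63 and -4.21. Mesp1, the gene of the first cardiac and head mesoderm, had 64.9, 65.3 and 42.8 against 86.8, 226 and 3984. Its mean difference of -2.71 ± 0.86 did not pass (adjusted p = 0.0684), and the differences by hour were -0.42, -1.64 and -6.08. Lhx1 and Gsc also did not pass on the mean, with differences of 0.04, -0.40 and -3.51 and 0.10, -0.70 and -1.36.

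Posterior genes were mostly apart at 36 h. Of 17 posterior and presomitic mesoderm genes 11 were tested, and 2 were lower and none higher, with medians of -0.047, -0.14 and -1.87 at the 3 hours. Nkx1-2, a homeobox gene of the caudal epiblast, had 17.1, 25.1 and 18.8 in KO BMP4 and 261, 605 and 1226 in WT BMP4 (-4.11 ± 0.71, adjusted p = 0.00230), and Cdx1 had 13.0, 18.5 and 15.6 and 60.1, 153 and 1287 (-3.02 ± 0.75, adjusted p = 0.0216). The others that parted did so at 36 h only and did not pass: 7 of the 11 were 2-fold lower from 36 h. Over all genes tested that share was 2.6%. Msgn1, a presomitic regulator, had 30.9 in KO BMP4 and 455 in WT BMP4 at 36 h, Cdx2 had 7.94 and 205, and Tbx6 had 30.3 and 217.

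Hox genes mark position along the trunk and are turned on in order from the streak. Of 39 Hox genes 15 were tested, and Hoxb1 alone passed, a share near the 7.23% of all genes tested. At 36 h 5 of the 15 were 2-fold lower in KO BMP4 and none higher, on single arrays. Over all genes tested 3.58% were 2-fold lower at that hour. Hoxb1, the first Hox gene of the posterior streak, had 20.7, 10.6 and 9.71 in KO BMP4 against 105, 149 and 3373 in WT BMP4 (-3.83 ± 0.95, adjusted p = 0.0216). Hoxb2, beside it in the cluster, had 36.5, 21.7 and 21.3 against 77.7, 95.0 and 1314 and did not pass (adjusted p = 0.0630). In both the WT BMP4 array at 36 h stood far above the earlier ones. Apln, the ligand apelin, had 37.8, 26.2 and 26.7 in KO BMP4 and 128, 1218 and 1287 in WT BMP4 (-3.77 ± 0.69, adjusted p = 0.00354). Its difference was -1.55 at 12 h and -4.94 at 24 h, against -1.82 and -2.66 for Hoxb1. The gene of its receptor, Aplnr, had 5.78, 12.9 and 19.7 in KO BMP4 and 8.82, 42.2 and 1965 in WT BMP4.

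Lateral and extraembryonic mesoderm gives rise to heart, amnion and allantois. Of 18 genes 13 were tested, 1 was lower and none higher on the mean, and 8 were 2-fold lower at 36 h. Over all genes tested 3.58% were 2-fold lower at 36 h. The gene that passed was Tbx3, with 119, 115 and 156 in KO BMP4 and 261, 416 and 755 in WT BMP4 (-1.71 ± 0.25, adjusted p = 7.65e-04); 1 or more of its other probe sets lay near 0 with the opposite sign. Bmp4 itself, which allantois and amnion express, had 63.6, 46.9 and 63.1 in KO BMP4 and 95.0, 70.5 and 2419 in WT BMP4, so its endogenous signal stood out in WT BMP4 at 36 h. Hand1 had 16.8, 23.6 and 148 against 30.9, 49.9 and 1261, Isl1 39.1, 37.8 and 28.8 against 23.4, 28.2 and 676, and Gata3 13.2, 9.58 and 62.2 against 33.8, 42.5 and 592. Hand1 and Gata3 were highest at 36 h in KO BMP4 as well, at a lower signal than WT BMP4, and Isl1 was not. Gata3 was 2-fold apart from 24 h and the other 3 at 36 h only. None of the 4 passed on the mean, with adjusted p from 0.109 (Gata3) to 0.411 (Isl1). Among endoderm and axial mesoderm genes 8 of 12 were tested and Fgf17 alone passed, at -1.71 ± 0.40 (adjusted p = 0.0164).

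**Figure D2:**
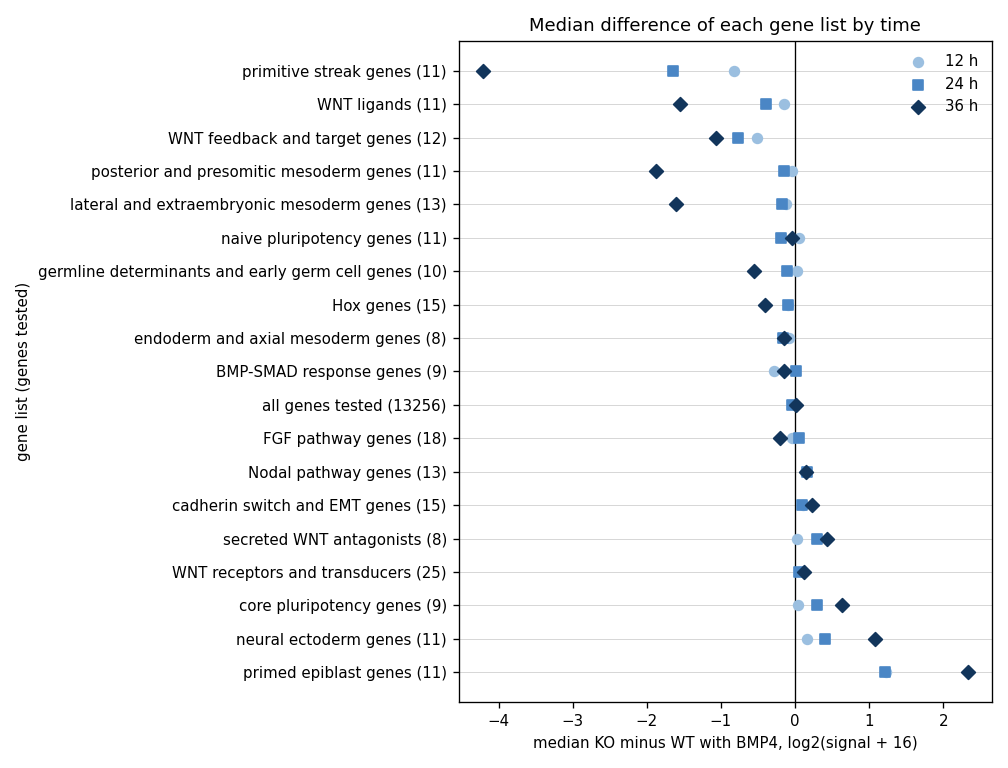
Median KO minus WT difference with BMP4 of each of 18 gene lists at 12, 24 and 36 h (the 5 marker lists of cell types are not plotted), on the log2(signal + 16) scale, with the number of genes tested in brackets and all genes tested as 1 row. Streak genes lie lowest at every hour, with a median of -4.21 at 36 h, posterior and lateral mesoderm lists leave 0 only at 36 h, and primed epiblast genes lie highest among the lists plotted.

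BMP signals to its direct targets through SMADs. Of 11 BMP-SMAD response genes 9 were tested, and 2 were lower and none higher, with a list median of -0.038. Id1, the classical SMAD target, had 5557, 8192 and 10156 in KO BMP4 and 6339, 7383 and 9878 in WT BMP4 (-0.04 ± 0.43, adjusted p = 0.978), against 145, 177 and 224 in KO and 162, 182 and 304 in WT cells without cytokine. Both genotypes with BMP4 stood far above both without. Id3 and Id2 did not pass either, at -0.26 ± 0.17 and 0.51 ± 0.26 (adjusted p = 0.435 and 0.283), with 1771, 3126 and 4012 in KO BMP4 and 1722, 2288 and 1978 in WT BMP4 for Id2. The 2 genes that were lower were the homeobox genes Msx1 and Msx2. Msx1 had 103, 149 and 292 in KO BMP4 and 488, 820.3 and 2369 in WT BMP4 (-2.55 ± 0.33, adjusted p = 2.86e-04), and Msx2 had 34.3, 78.2 and 491 and 251, 644 and 2150 (-2.55 ± 0.55, adjusted p = 0.00997). In KO cells both stood higher with BMP4 than without at each hour, where Msx1 had 29.4, 46.5 and 53.1 and Msx2 19.3, 23.4 and 24.1. Nodal, the activin-like ligand of the epiblast, was the only gene of its pathway list of 13 to pass, at -0.44 ± 0.11 (adjusted p = 0.0174). That share is near the 7.23% of all genes tested.

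Genes of the primed epiblast stayed high in KO BMP4. Of 12 genes 11 were tested, and 8 were higher and none lower, with medians of 1.23, 1.21 and 2.33 at the 3 hours. Pou3f1, which encodes the POU factor OCT6 of epiblast and early neural cells, had 4040, 2817 and 2091 in KO BMP4 against 917, 422 and 153 in WT BMP4 (2.77 ± 0.33, adjusted p = 1.52e-04). Otx2, a homeobox gene of the anterior epiblast, had 596, 849 and 803 against 144, 101 and 20.4 (3.06 ± 0.52, adjusted p = 0.00216). Both genes were near their 0 h signals in KO BMP4 at 12 h, where Pou3f1 had 4451 and Otx2 541 at 0 h. Foxd3, needed to keep the epiblast, had 545, 407 and 458 against 108, 45.6 and 12.7 (2.95 ± 0.36, adjusted p = 1.93e-04). Utf1, a chromatin factor gene of pluripotent cells, had 5997, 6039 and 4240 against 3591, 1389 and 359.5 (2.12 ± 0.46, adjusted p = 0.0105). Dnmt3a, a de novo DNA methyltransferase gene, was higher by 1.22 ± 0.17 (adjusted p = 4.82e-04), while Dnmt3b and Fgf5 did not pass at 0.69 ± 0.23 and 1.61 ± 0.50 (adjusted p = 0.0846 and 0.0607).

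Other pluripotency genes divided. Sox2, which is shared by pluripotent and neural cells, had 3743, 4705 and 3956 in KO BMP4 and 1399, 1235 and 388 in WT BMP4 (2.20 ± 0.36, adjusted p = 0.00147). Pou5f1 had 9345, 8780 and 9345 and 9542, 8780 and 7913 and did not pass (0.08 ± 0.11, adjusted p = 0.760). Nanog had 1201, 1783 and 1510 in KO BMP4 and 3541, 4330 and 1342 in WT BMP4, with differences of -1.54, -1.29 and 0.19, and did not pass (adjusted p = 0.409). Of 11 naive pluripotency genes tested from 12, Nr0b1 was higher by 2.15 ± 0.28 (adjusted p = 2.78e-04). A second naive gene, Esrrb, was lower by -0.93 ± 0.26 (adjusted p = 0.0411), with -1.71, -1.03 and -0.04 at the 3 hours and another probe set of opposite sign. The third naive gene that passed was Tbx3, given above with the lateral mesoderm list.

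The FGF genes of the epiblast and of the streak went opposite ways. Fgf4, the FGF of pluripotent cells, had 1409, 1698 and 1235 in KO BMP4 against 176, 94.4 and 81.0 in WT BMP4 (3.47 ± 0.69, adjusted p = 0.00570). Fgf15 had 771, 1193 and 1351 against 119, 97.0 and 182 (2.91 ± 0.42, adjusted p = 5.98e-04). Fgf8 and Fgf17, given above, were lower. Of 18 FGF pathway genes tested, 2 were lower and 3 higher, and the third higher one was the feedback inhibitor Spry1 (0.75 ± 0.12, adjusted p = 0.00153). Dusp6, a phosphatase gene that ERK signalling induces, was at -0.73, -1.78 and -1.56 and did not pass (adjusted p = 0.0798).

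Other genes among the highest in KO BMP4 have varied roles. Enpp3, an ectonucleotidase gene, had 1351, 1479 and 1924 against 208, 144 and 59.3 (3.47 ± 0.34, adjusted p = 6.96e-05), with another of its probe sets near 0 on the other side. Slc35d3, a transporter gene, was higher by 3.38 ± 0.38 (adjusted p = 1.11e-04), Calcr, the calcitonin receptor gene, by 2.54 ± 0.33, Myb, a transcription factor gene of progenitor cells, by 2.53 ± 0.44, Pipox, which encodes a peroxisomal oxidase, by 2.30 ± 0.30 and Zfp462, a zinc finger gene, by 2.20 ± 0.28. Rtl8c, a gene derived from a retrotransposon, was among the lowest, with 50.6, 37.5 and 42.5 in KO BMP4 and 744, 1629 and 2837 in WT BMP4 (-4.76 ± 0.65, adjusted p = 3.63e-04). Frmd4a stood apart in another way: it was higher in KO cells by 2.21 ± 0.42 with BMP4, but also at 0 h, where the signals were 79.3 in KO and 10.3 in WT cells.

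**Figure D3:**
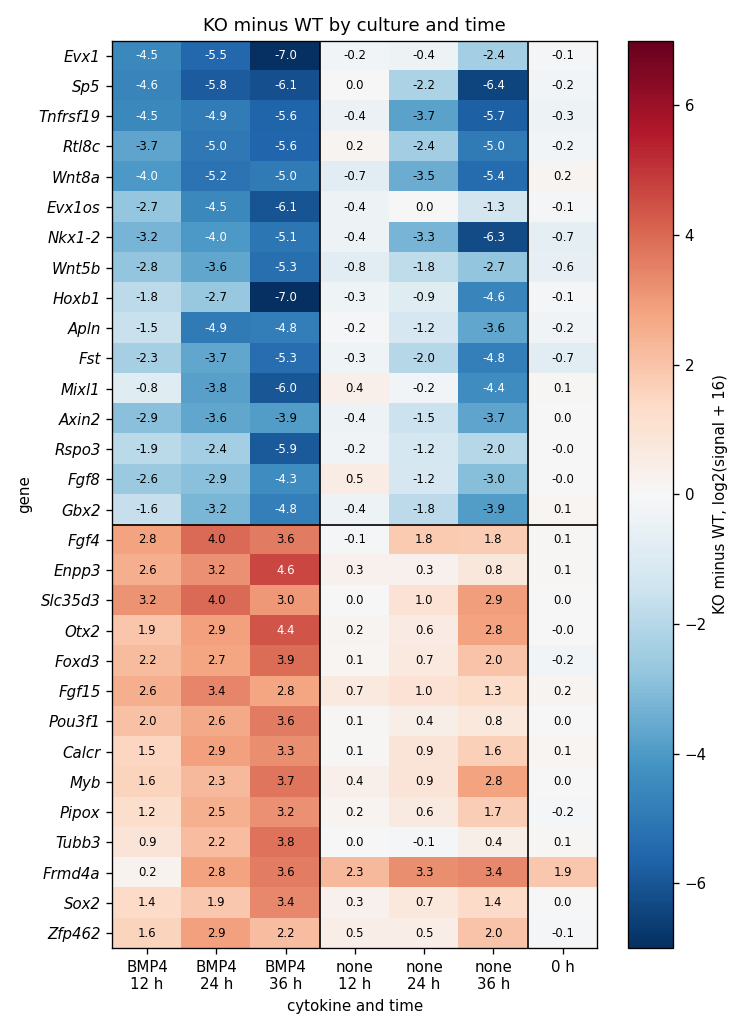
KO minus WT difference on the log2(signal + 16) scale for the 16 lowest and 14 highest genes, with BMP4 at 12, 24 and 36 h, without cytokine at the same hours, and at 0 h, 1 array pair per cell. At 0 h Frmd4a stood at 1.89, Fst at -0.72, Nkx1-2 at -0.70 and Wnt5b at -0.57, with the others between -0.33 and 0.20, and without cytokine most of the lowest genes part only at 24 or 36 h.

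Of 17 neural ectoderm genes 11 were tested, and 1 was lower and 2 higher in KO BMP4, with list medians of 0.16, 0.41 and 1.08 at the 3 hours. At 36 h 6 of the 11 were at least 2-fold higher, on single arrays, against 4.03% of all genes tested. Of the differentiated neural markers 2 of 4 were tested, Tubb3 among them, with medians of 0.59, 1.46 and 2.45. Pax6, an eye and forebrain regulator, had 102, 153 and 219.8 in KO BMP4 and 41.6, 25.1 and 27.3 in WT BMP4 (1.80 ± 0.34, adjusted p = 0.00417), and 3 of its 4 other probe sets lay near 0. Gbx2, a gene of the posterior epiblast as well as of the hindbrain border, was the lower one, with 48.8, 22.5 and 14.9 against 163, 315 and 917 (-3.20 ± 0.60, adjusted p = 0.00439). Tubb3, a neuronal tubulin gene, was the second higher one and had 1252, 1075 and 1351 in KO BMP4 and 630.3, 215 and 78.8 in WT BMP4 (2.30 ± 0.49, adjusted p = 0.00930), but its signals at 0 h were already 1758 in KO and 1663 in WT cells. Sox1, the early neural plate gene, had 31.3, 42.2 and 39.1 and 8.82, 7.89 and 8 and did not pass (adjusted p = 0.186).

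Germline genes were mixed. Of 11 germline genes 10 were tested, and 1 was lower and 2 higher. Tfap2c, a germ cell determinant, had 62.2, 58.9 and 155 in KO BMP4 and 155, 288 and 317 in WT BMP4 (-1.45 ± 0.38, adjusted p = 0.0298). The other 2 determinants parted at 36 h only and did not pass: Prdm14 had 5.10, 4.69 and 6.06 in KO BMP4 and 10.1, 6.45 and 249 in WT BMP4 (adjusted p = 0.185), and Prdm1, which encodes BLIMP1, had 55.7, 64.9 and 37.5 and 57.3, 88.0 and 215 (adjusted p = 0.112). The 2 higher genes were Ddx4 and Elavl2, at 0.62 ± 0.16 and 0.86 ± 0.18 (adjusted p = 0.0282 and 0.00811), and another probe set of Elavl2 had the opposite sign.

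Cells that leave the streak exchange epithelial for mesenchymal adhesion genes. Of 16 genes 15 were tested, and 2 were lower and 3 higher in KO BMP4. Cdh2, the gene of N-cadherin, had 128, 138 and 118 in KO BMP4 and 133, 194 and 2048 in WT BMP4, Vim, of vimentin, 2226, 3126 and 2896 and 2006, 2896 and 9476, and Fn1, of fibronectin, 1585, 2006 and 1965 and 1031, 1746 and 8780. None of the 3 passed on the mean (adjusted p = 0.145, 0.387 and 0.569). Zeb2, a repressor of epithelial genes, passed along with Snai1, at -1.43 ± 0.35 (adjusted p = 0.0197), with another probe set of opposite sign. Epcam and Esrp1, an adhesion gene and a splicing factor gene of epithelia, were higher by 0.45 ± 0.13 and 0.45 ± 0.13 (adjusted p = 0.0445 and 0.0444). Each fell short of passing in 11 of 17 alternative settings of the processing. Grhl2, a regulator of epithelial genes also counted with the primed epiblast, was higher by 0.78 ± 0.22 (adjusted p = 0.0416), and its other probe sets lay nearer 0, some of opposite sign. Cdh1, the gene of E-cadherin, had 6123, 6794 and 6295 in KO BMP4 and 5367, 6383 and 5442 in WT BMP4 and did not pass (0.18 ± 0.07, adjusted p = 0.151).

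Counted hour by hour, the gap between the genotypes widened. With BMP4, 122 genes (0.92%) were at least 2-fold lower and 92 (0.694%) at least 2-fold higher in KO cells at 12 h. At 24 h the counts were 180 (1.36%) and 164 (1.24%), and at 36 h 474 (3.58%) and 534 (4.03%). These counts compare single arrays and have no test. Setting the hours against each other within a genotype, 69 genes were 2-fold apart between 24 and 36 h in KO BMP4 against 662 in WT BMP4, and between 12 and 24 h 109 in KO BMP4 against 171 in WT BMP4. At 0 h 13 genes (0.0981%) were lower and 14 (0.106%) higher in KO cells.

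**Figure D4:**
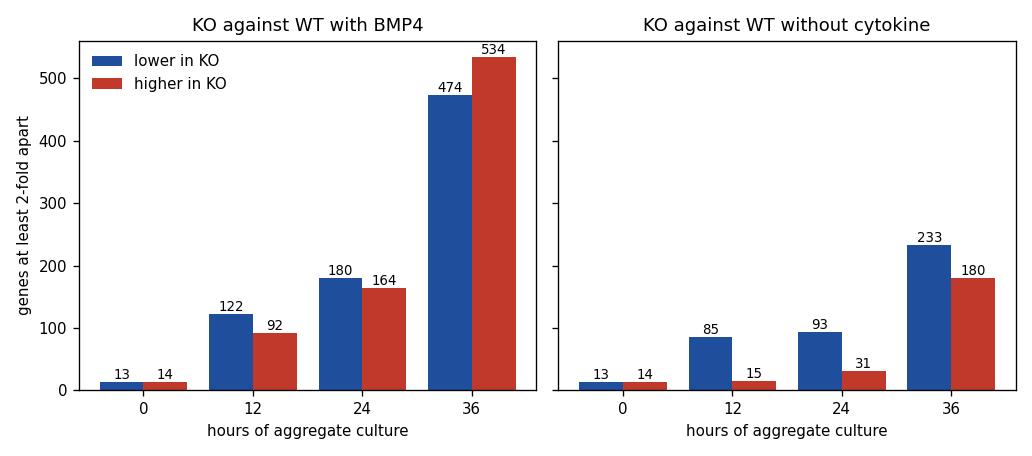
Number of genes at least 2-fold lower or higher in KO than in WT cells at 0, 12, 24 and 36 h, with BMP4 (left) and without cytokine (right), from single pairs of arrays. With BMP4 the counts run from 13 lower and 14 higher at 0 h to 474 lower and 534 higher at 36 h, and at each of the 3 later hours they exceed those without cytokine.

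Genes could be sorted by the first hour from which they stayed 2-fold apart. From 12 h on, 67 genes (0.505%) were lower and 49 (0.37%) higher in KO BMP4. Of the 16 lowest named genes 15 belonged here, all but Mixl1. The 16 were ranked on the mean of the same 3 hours, which favours genes already apart at 12 h. Their count is therefore no evidence on when the most affected genes part. From 24 h on 53 (0.4%) were lower and 60 (0.453%) higher, and Mixl1, Tubb3 and Frmd4a belonged to these. At 36 h only, 344 (2.6%) were lower and 412 (3.11%) higher, among them Bmp4, Hand1, Isl1, Msgn1, Cdx2, Tbx6, Wnt3a, Wnt5a, Prdm14, Prdm1, Cdh2, Vim and Fn1 on the lower side. A further 42 (0.317%) lower and 37 (0.279%) higher genes were 2-fold apart at 12 h and no longer at 36 h, Esrrb and Tfap2c among the lower ones. At 36 h Esrrb was near 0 (-0.04), while Tfap2c was just short of 2-fold (-0.97).

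A change of the difference with time was also tested, as a slope per 12 h in a model with a linear course for each condition. Of 13256 genes 131 passed (0.988%), with 64 falling (0.483%) and 67 rising (0.505%). The 5 steepest falls were Mesp1 at -2.83 ± 0.41 (adjusted p = 0.0209), Aplnr at -2.74 ± 0.54 (adjusted p = 0.0410), Hoxb1 at -2.59 ± 0.53 (adjusted p = 0.0459), Cyp26a1 at -2.46 ± 0.40 (adjusted p = 0.0223) and Dusp4 at -2.29 ± 0.48 (adjusted p = 0.0477). Cyp26a1 encodes the enzyme that breaks down retinoic acid and Dusp4 a phosphatase of the MAP kinases. Cyp26a1 had 59.7, 50.6 and 46.5 in KO BMP4 and 44.6, 99.7 and 1629 in WT BMP4, and Dusp4 219.8, 198 and 154 and 185, 179 and 3444, so WT BMP4 at 36 h was the array that set them apart. The 5 steepest rises were Cxcl12 at 2.20 ± 0.31 (adjusted p = 0.0209), Eras at 2.03 ± 0.35 (adjusted p = 0.0304), Bach2 at 1.95 ± 0.39 (adjusted p = 0.0410), Frmd4a at 1.66 ± 0.22 (adjusted p = 0.0173) and Pdzd4 at 1.55 ± 0.22 (adjusted p = 0.0209). Eras, a Ras gene of pluripotent cells, had 3281, 2226 and 2150 in KO BMP4 and 2436, 1218 and 79.9 in WT BMP4, and Cxcl12, a chemokine gene, 588, 861 and 1269 and 588, 365 and 43.7. In Bach2 the sign turned, with -2.54, -0.50 and 1.37 at the 3 hours. With no filter on dim genes 3 genes passed the slope test, and none of the 10 named here was among them.

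**Figure D5:**
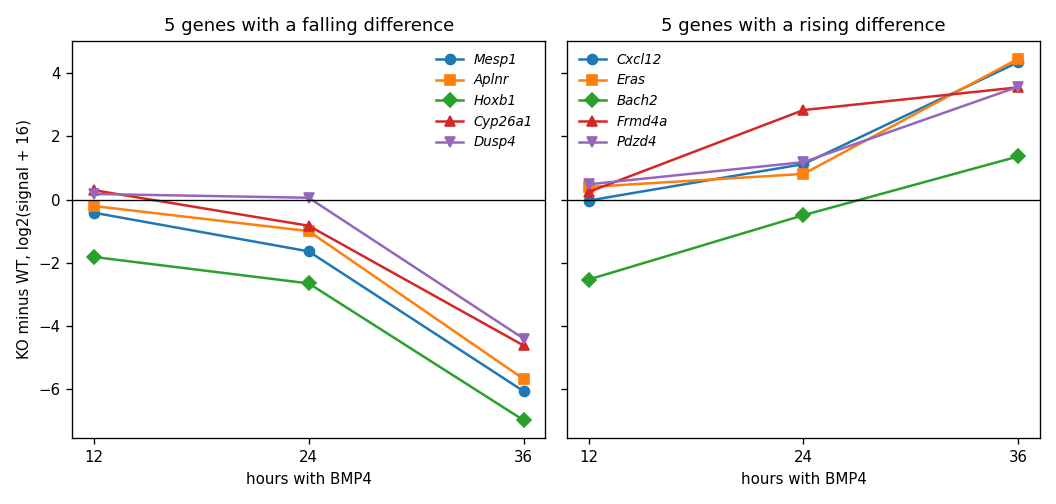
KO minus WT difference with BMP4 on the log2(signal + 16) scale at 12, 24 and 36 h for the 5 genes with the most negative and the 5 with the most positive slope, 1 array pair per point. Mesp1, Aplnr, Hoxb1, Cyp26a1 and Dusp4 drop between 24 and 36 h to between -4.41 and -7.0, and the rising genes end between 1.37 (Bach2) and 4.47 (Eras).

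The same genotypes without cytokine give the differences beside these. KO none and WT none differed at 13 genes (0.0981%), with 9 lower (0.0679%) and 4 higher (0.0302%) in KO cells, while 1626 had an unadjusted p below 0.05. None of the 12 WNT feedback and target genes tested passed in limma without cytokine, and 6 of them, all lower, had an unadjusted p below 0.05. Sp5 and Axin2 were far apart at 36 h on single arrays: Sp5 had 27.3, 26.0 and 24.8 in KO none and 27.5, 181 and 3541 in WT none, and Axin2 43.4, 88.0 and 55.7 and 61.0, 274 and 996. By hour, 85 genes (0.641%) were 2-fold lower and 15 (0.113%) higher at 12 h, 93 (0.702%) and 31 (0.234%) at 24 h, and 233 (1.76%) and 180 (1.36%) at 36 h. Evx1 had 17.9, 16.7 and 18.5 in KO none and 22.9, 25.6 and 170.1 in WT none, and Otx2 657, 704 and 917 and 568, 431 and 116. Mesp1, by contrast with its BMP4 values, had 77.2, 53.8 and 47.5 in KO none and 107, 62.7 and 47.2 in WT none. Foxa2, a gene of axial mesoderm and endoderm, was the reverse case: without cytokine it had 35.0, 78.8 and 41.6 in KO and 30.7, 129.8 and 1160 in WT cells, and with BMP4 26.4, 18.3 and 19.8 and 27.3, 27.1 and 39.4. It did not pass with BMP4 (-0.33 ± 0.66, adjusted p = 0.835).

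Whether the response to BMP4 itself differed between the genotypes was tested as the BMP4 minus no-cytokine difference in KO cells less that in WT cells. In limma 0 of 13256 genes (0%) passed, with a smallest adjusted p of 0.0516, and 781 genes (5.89%) had an unadjusted p below 0.05. The lowest values by moderated t were those of Wls (-1.29 ± 0.21), Evx1 (-4.67 ± 0.83), Tmem185a (-1.72 ± 0.31), Pdgfrl (-1.54 ± 0.29) and Macroh2a1 (-1.19 ± 0.23). Wls had 232, 605 and 1003 in KO none and 170.1, 530.1 and 1113 in WT none. The highest were Gpc4 (1.02 ± 0.16), Enpp3 (3.01 ± 0.48), Slc39a14 (1.16 ± 0.20), Prr18 (1.78 ± 0.31) and Depdc7 (1.05 ± 0.19). None of these passed.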

How the data were processed

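Amplified cDNA of total RNA gave the biotin-labelled cRNA that was, per the labels' protocols, hybridised to Affymetrix arrays. The authors deposited intensity values on a linear scale with a floor at 1; their making was not given in the sources used here. Of 45101 probe sets 34958 name 1 gene and were used, 34754 with symbols updated through RefSeq (GRCm38.p6), and each gene was read by the one with the highest mean log2 value. Values were taken as log2(signal + 16) and quantile normalized over 23 arrays. Genes above the array median on at least 3 arrays were kept, 13256 of 18194. Fits used limma 3.58.1 in R 4.3.3 with a mean-variance trend on 21 arrays (7 conditions, time as an additive block, 12 residual degrees of freedom; 6 for slopes) and Benjamini-Hochberg adjustment over all genes kept. The block pairs the arrays of an hour, as the titles give it. The number of arrays limits the precision, and the steps were tested on simulated data. Members and the 23 lists (303 genes, 226 kept) were chosen with earlier results of these data known. Genes named are the 16 lowest and 14 highest that passed with 1 sign at all 3 times (gene models skipped), the 5 steepest slopes each way, the 5 lowest and 5 highest response differences, list members and Wnt3. A further 6 KO arrays, whose titles and descriptions disagree, entered the spread estimate only. Alternatives covered normalization, offset, filter, probe sets, weights, blocks and arrays left out.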

Additional observations from a re-analysis of the deposited data

Results flagged for a closer look

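The difference between KO BMP4 and WT BMP4 changed over the hours for 26 of the genes named, each with a slope that passed in limma. With no filter on dim genes none of the 26 passed (smallest adjusted p = 0.0523), with no trend in the prior variance 8 did, and with the mean of probe sets 12 did, and 12 with the 6 KO arrays of conflicting labels left out; no sign turned in these 4. The slope is the change of KO minus WT per 12 h on the log2 scale. It fell for the streak and mesoderm genes Mesp1 (-2.83), Aplnr (-2.74), Hoxb1 (-2.59), Lhx1 (-1.77), Cdh2 (-1.92), Fst (-1.51) and Gbx2 (-1.58), for the WNT genes Dkk1 (-2.15), Lef1 (-1.2) and Wnt5b (-1.24), and for Cyp26a1 (-2.46), Dusp4 (-2.29) and Rtl8c (-0.95). It rose for the pluripotency and epiblast genes Eras (2.03), Utf1 (1.43), Sox2 (1.00) and Esrrb (0.84), for the WNT repressor and antagonist genes Tcf7l1 (0.71) and Sfrp2 (1.26), and for Cxcl12 (2.20), Bach2 (1.95), Frmd4a (1.66), Pdzd4 (1.55), Myb (1.09), Pipox (0.97) and Calcr (0.88). With 1 array per point, the 36 h arrays weigh on every slope. Fzd10, the Frizzled gene that was lower in KO BMP4 at all 3 hours, had a KO minus WT difference of 0.125 without cytokine, positive at all 3 hours after quantile normalization. The difference between the 2 differences, -0.96 ± 0.20, did not pass in limma (adjusted p = 0.148).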

How the results depend on the processing

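Over the 958 genes, the count was 265 with no replicate block (times unpaired), 117 with only the arrays compared, 561 without the 6 KO arrays of conflicting labels, 243 with an added limit of 2-fold and 1504 with a linear course per condition. Leaving out 1 hour gave 7 to 846, and 538 of the 846 without 36 h, 414 of the 466 without 12 h and all 7 without 24 h were among the 958. The 131 slopes became 3 with no filter, 37 with no trend in the prior variance, 64 with the mean of probe sets, 31 without the conflicting arrays, 199 with array weights and 76 with an added limit of 2-fold. The 0 response differences became 2 with values as deposited or median centring, 3 with an offset of 64, with a filter at the 60th percentile or without the 3 arrays of highest Gapdh ratio, 12 with array weights, and 0 to 29 with an hour left out. The 13 genes without cytokine became 7 with no filter, 5 with array weights, 6 with an added limit of 2-fold, 2 with no replicate block, 1 without the 3 arrays of highest Gapdh ratio, 0 with only the arrays compared or without the conflicting arrays, and 0 to 38 with an hour left out. The 2-fold counts at 12 h became 186 lower and 151 higher with an offset of 1, and 67 and 54 with an offset of 64, which also gave 93 higher at 24 h and 312 higher at 36 h. At 4-fold they were 22 and 8 at 12 h, 45 and 22 at 24 h, and 153 and 91 at 36 h. Signs turned for Id1 as deposited (4.64e-05) and, with an hour left out, for Id1 (-0.10 to 0.026), Bach2 (-1.52 to 0.44), Dusp4 (-2.18 to 0.12), Isl1 (-1.78 to 0.37), Vim (-0.86 to 0.11) and Fn1 (-1.05 to 0.36), none of which had passed on the mean. The fewer arrays or limits of some alternatives aside, the cause was not tested. Signals near the floor carry the largest relative error, and no detection calls were used.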

Other observations

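The genes of this paragraph were picked after their values were seen. Several genes known to be induced by interferon had falling slopes, with the WT BMP4 array at 36 h high. Gbp2, a guanylate-binding protein gene, had signals of 103, 99.0 and 126 in KO BMP4 and 77.7, 154 and 1771 in WT BMP4 (slope -1.98 ± 0.38, limma adjusted p = 0.0410). Psmb8, of the immunoproteasome, had 148, 99.7 and 139 and 96.3, 144 and 2062 (slope -2.15 ± 0.33, adjusted p = 0.0209), and Irgm1 82.7, 72.5 and 47.5 and 108, 179.8 and 849 (slope -1.62 ± 0.33, adjusted p = 0.0456). Ifi35 differed in that KO BMP4 was the higher array at 12 h, with 526, 128 and 124 in KO BMP4 and 182, 101 and 1168 in WT BMP4 (slope -2.25 ± 0.35, adjusted p = 0.0209). Bst2, also an interferon-induced gene, had 609, 481 and 508 and 560.3, 446 and 626 and a slope that did not pass (adjusted p = 0.686). Fos, an immediate early gene, had 52.0, 73.0 and 62.2 in KO BMP4 and 51.6, 89.9 and 1105 in WT BMP4 (slope -1.87 ± 0.39, adjusted p = 0.0469).

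Metallothionein genes, which bind zinc and other metals, crossed over. Mt1 had 3848, 3929 and 5405 in KO BMP4 and 8659, 5113 and 2504 in WT BMP4, with differences of -1.1, -0.40 and 1.15 (slope 1.12 ± 0.14, adjusted p = 0.0113), and Mt2 had 2665, 3236 and 4837 and 8079, 4804 and 2257 (slope 1.35 ± 0.17, adjusted p = 0.0113). Cdkn1a, the gene of the cell cycle inhibitor p21, was lower in KO cells both with BMP4 (-1.74 ± 0.23, adjusted p = 3.39e-04) and without cytokine (-1.48 ± 0.23, adjusted p = 0.0253), with a difference of -0.07 at 0 h. All of these rest on 1 array per genotype and hour.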
